A study of Mus musculus with 583 samples.

Results

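Mitotic-high and mitotic-low cells were compared within single-cell RNA-seq libraries of mouse embryonic stem cells. In each library the cells were ranked by the mean log2(CPM + 1) of 10 mitotic genes, with CPM (counts scaled to the same total per cell) taken on mouse genes. The cells were thus chosen by the measured levels of these ranking genes, namely Top2a, Mki67, Cenpe, Cenpf, Plk1, Aurka, Cdc20, Ube2c, Ccnb1 and Tpx2. The ranked cells were divided into 3 sets of nearly equal size, and the upper set (mitotic-high, 191 cells) was compared with the lower set (mitotic-low, 191 cells). These 382 cells came from 583 in all, and the other 201 formed the middle set. The counts of the cells of a set were summed, so that each library gave 1 mitotic-high and 1 mitotic-low profile, and the 2 profiles were paired by library.

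Cells that prepare to divide switch on a set of genes in G2 and M phase. These genes encode the cyclin-dependent kinase that starts mitosis, the spindle and its motors, the kinetochores that bind chromosomes to it, the checkpoint that delays separation, and the machinery that splits the cell. Many of them are held back in G1 by the DREAM complex and activated later by B-Myb, MuvB and FOXM1, through promoter elements named CHR (cell cycle genes homology region) and the CCAAT box bound by NF-Y. Embryonic stem cells divide fast, have a short G1 phase and spend much of their cycle in S phase, in which replication-dependent histone mRNAs accumulate.

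All cells were mouse embryonic stem cells of the J1 line, grown in 2i/LIF medium, which holds such cells in a naive ground state, and no group received any other treatment. The study profiled them with 6 methods and made 2 replicate libraries, A and B, with each. Smart-seq / C1 and Smart-seq2 read transcripts over their full length and were counted as reads, while Drop-seq, SCRB-seq, MARS-seq and CEL-seq2 capture only the 3' ends, with a molecular barcode (UMI) that counts molecules. The 12 libraries held 29 to 80 cells each and gave 9 to 26 cells to each set.

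The summed counts of mouse genes in a library were 218802 to 11358914 in mitotic-high cells and 154801 to 11417946 in mitotic-low cells. The median count per cell of mitotic-high cells was 0.935 to 1.37 times that of mitotic-low cells of the same library (median 1.13), so the ranking was not free of depth. Across the cells of a library, which share its preparation, the Spearman correlation of the score with the total count ranged from -0.26 in Smart-seq / C1 B to 0.55 in SCRB-seq B. Of the 191 mitotic-high cells, 144 were again mitotic-high when every cell was first thinned to 10000 counts, and 7 became mitotic-low. Of 10 cells with over 2 times their library's median count, 8 were mitotic-high and 1 was mitotic-low. In Drop-seq, 29 of 42 barcodes in A and 12 of 34 in B differed from another barcode of the library by 1 changed or missing base, and joining them left 25 and 28 cells. Cell names made of a plate well or a designed barcode recurred between libraries, for example 66 between Smart-seq2 A and B and 26 between CEL-seq2 A and B, and no Drop-seq barcode recurred in another library. Whether replicates A and B were separate cultures is not in the labels. The p-values therefore reflect variation among these libraries, and that variation may be technical only.

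The scores that chose the cells are given as a description. The library medians ran from 6.51 to 8.48 (median 7.94) in mitotic-high cells and from 3.39 to 7.05 (median 6.33) in mitotic-low cells. The sets met closely at the upper division, where the lowest mitotic-high cell scored 0.00785 to 0.252 above the highest middle cell. At the lower division the lowest middle cell scored 0.00105 to 0.122 above the highest mitotic-low cell. The divisions are cuts by rank, so these gaps cannot show whether the scores form groups. The sets are not treated as cell types.

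**Figure D1:**
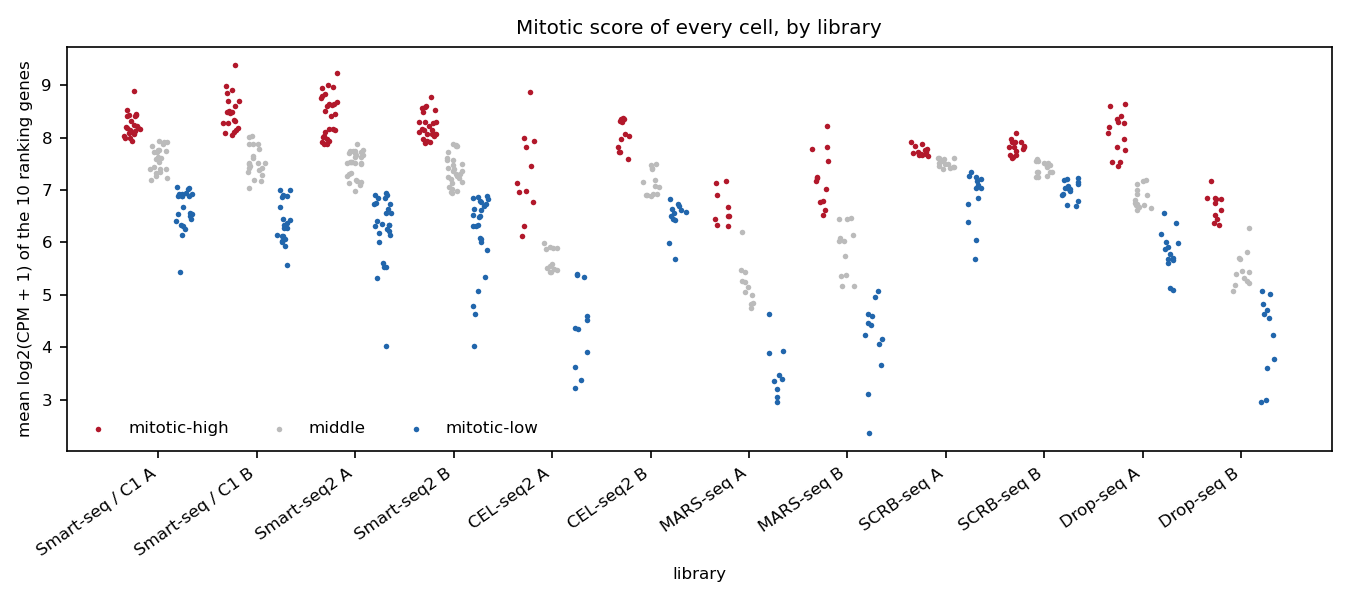
Mitotic score of each cell (y axis, mean log2(CPM + 1) of the 10 ranking genes) in the 12 libraries (x axis), with mitotic-high cells in red, middle cells in grey and mitotic-low cells in blue. The gap between the medians of mitotic-high and mitotic-low cells was 0.67 in SCRB-seq A and 3.12 in MARS-seq A. Neighbouring cells lay at most 0.252 apart at the upper division and at most 0.122 apart at the lower.

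The gap between the set medians differed between libraries. It was narrowest in SCRB-seq, at 0.67 in A and 0.80 in B, and widest in MARS-seq A, at 3.12 on this log2 scale. Mitotic-high cells held counts of 9 to 10 of the ranking genes in the median cell, against 5 to 10 in mitotic-low cells, so some mitotic-low cells scored low through ranking genes with no count.

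To see whether the ranking genes moved together, each was also left out of the ranking in turn, and the cells were ranked by the other 9. Plk1, the kinase that drives entry into and progress through mitosis, then had a median level over libraries of 153 CPM in mitotic-high cells and 69.3 CPM in mitotic-low cells, a median log2 difference of 1.38. The smallest such difference, 0.72, was that of Mki67, which encodes the proliferation marker Ki-67, at 97.8 CPM in mitotic-high and 64.6 CPM in mitotic-low cells. Each ranking gene was higher in mitotic-high cells in 10 to 12 of the 12 libraries when it had no part in the ranking. None of the 10 genes was tested.

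Across the other genes, edgeR's quasi-likelihood test, paired by library, called few changes, and most were rises of mitotic genes. Of 12218 genes tested, 80 passed at an adjusted p below 0.05, which is 0.655% of them. In mitotic-high cells 71 genes rose (0.581%) and 9 fell (0.0737%), against mitotic-low cells. An unadjusted p below 0.05 was reached by 957 genes (7.83%). DESeq2 called 128 of the 7002 genes it gave an adjusted p, with 83 up and 45 down, and edgeR with DESeq2 size factors called 71, with 56 up and 15 down, so the share of rises among the calls differed between settings. With cells ranked after thinning to 10000 counts 64 genes were called, 57 of them among the 80. With each cell thinned to 10000 counts before both ranking and summing 31 were called, 26 of them among the 80. Without the cells of high total count 80 were called (72 shared), and without both Drop-seq libraries 81 (68 shared). The median log2 fold change over all genes tested was 0.00, and it was -0.04 with DESeq2 size factors.

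Of the 71 risen genes 42 belonged to mitotic lists. The 10 mitotic lists name 160 genes beside the ranking genes. All 160 were tested, and none of them fell, where 0.0737% of all genes tested fell. The median log2 fold change of the 160 genes was 0.28, and 128 of them (80.0%) lay above 0, against 50.2% of all genes tested. Since the lists share their biology with the ranking genes, this describes how far the score reaches and is no independent support for it. Of the 71 risen genes, 67 were higher in mitotic-high cells in at least 10 of the 12 libraries and 17 in all 12. The 71 were chosen by a test over these same libraries, so this agreement is partly built in. Of all genes tested, 31 (0.254%) were higher in all 12, and the share for at least 10 was not counted. For 63 of the 71, and for 3 of the 9 that fell, the middle cells had a median level between those of the other sets. Middle cells were set by the same score that the 71 genes follow, so this only describes the calls. The share over all genes was not counted. The level of a sum of cells cannot tell whether more cells carried a transcript or each cell carried more of it.

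The changes were of moderate size. Only 15 of the 71 genes changed by a log2 fold change of at least 1, and the median was 0.74. Levels of mitotic-high and mitotic-low cells overlapped over libraries for each of the 71, and the share over all genes was not counted. Levels of reads and UMIs from different methods are not on 1 scale, so this overlap does not measure the size of the paired changes. The pairs within libraries are shown in the map of differences.

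**Figure D2:**
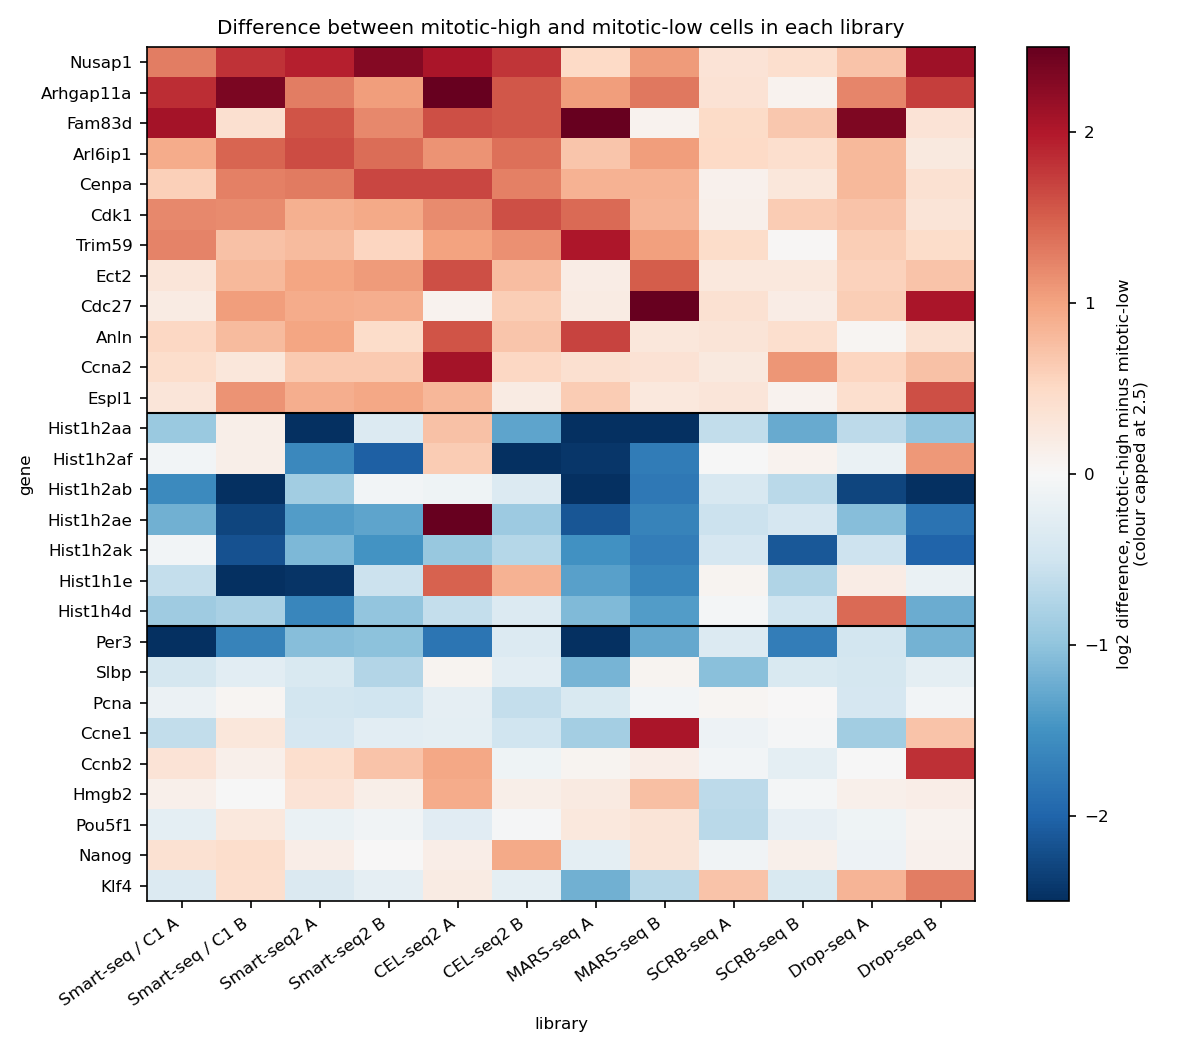
Log2 difference of TMM-scaled CPM between mitotic-high and mitotic-low cells (colour, red where mitotic-high cells were higher, capped at 2.5) for named genes (y axis) in each library (x axis). The upper block holds the 12 largest rises with the same sign in all 12 libraries, and the middle block the 7 histone genes that fell. The lower block holds Per3, Slbp, Pcna, Ccne1, Ccnb2, Hmgb2, Pou5f1, Nanog and Klf4.

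The kinase and cyclins of mitotic entry rose in part. Cdk1, the kinase that starts mitosis (ENSMUSG00000019942, chromosome 10, 69335146 to 69352938 on GRCm38), had 46.1 to 642 TMM-scaled CPM (median 376) in mitotic-high cells of the 12 libraries and 35.5 to 281 (median 176) in mitotic-low cells. Mitotic-high cells were higher in all 12 libraries, with the lowest levels of both sets in Drop-seq B. The log2 fold change was 0.99 ± 0.10 (SE) and edgeR's adjusted p was 4.89e-09. Ccna2, the cyclin A that serves S phase and early mitosis, had 93.0 to 338 CPM (median 193) in mitotic-high and 48.1 to 216 (median 123) in mitotic-low cells and rose by 0.63 (adjusted p = 0.000422, edgeR, 12 of 12 libraries). Ccnf, the F-box protein cyclin F, rose by 0.81 and Cks2, a small partner of Cdk1, by 0.83. Ccnb2, the second mitotic B-type cyclin, did not pass, with 75.9 to 372 CPM (median 208) in mitotic-high and 29.6 to 334 (median 161) in mitotic-low cells. Its log2 fold change was 0.31 (adjusted p = 0.317, edgeR), although it is close in function to the ranking gene Ccnb1. Of the 16 entry genes tested 4 rose, and the median was 0.45. Cdc25b, a phosphatase that activates Cdk1, had the list's largest value (1.24) and did not pass.

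Of the mitotic lists, that of the spindle held the largest rise and the most risen genes. Nusap1, which bundles and anchors spindle microtubules (ENSMUSG00000027306, chromosome 2, 119618298 to 119651244), had 89.9 to 421 CPM (median 152) in mitotic-high cells, against 23.7 to 151 (median 58.9) in mitotic-low cells. It was higher in mitotic-high cells of every library, by 0.34 to 2.29 on the log2 scale, and rose by 1.44 ± 0.15 (SE, adjusted p = 1.71e-07, edgeR). Hmmr, a receptor for hyaluronan that also acts at spindle poles (ENSMUSG00000020330, chromosome 11, 40701395 to 40733422), had 51.0 to 577 CPM (median 210) in mitotic-high and 41.9 to 306 (median 106) in mitotic-low cells. It rose by 1.04 ± 0.12 (SE, adjusted p = 4.74e-07, edgeR) and was higher in 11 of 12 libraries. Fam83d, which brings casein kinase 1 to the spindle, rose by 1.25 in 12 of 12 libraries. Of 31 genes of kinesins and spindle assembly 14 rose, with a median of 0.48. The kinesins that rose were Kif18b (1.09), Kif18a (0.93), Kif4 (0.74), Kif11 (0.71), Kif2c (0.68), Kif22 (0.66) and Kif20b (0.53). The other risen members were Ckap2l, Knstrn, Ckap2 and Ckap5, which bind spindle microtubules or centrosomes. None of the augmin subunits (Haus genes), which branch spindle microtubules, passed, and their values ran from -0.62 for Haus5 to 0.19 for Haus2.

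Transcripts of some centromere genes and of most chromosomal passenger genes rose. Cenpa, the histone H3 variant that marks centromeres (ENSMUSG00000029177, chromosome 5, 30666777 to 30674830), had 112 to 486 CPM (median 276) in mitotic-high and 68.9 to 214 (median 159) in mitotic-low cells. It was higher in all 12 libraries and rose by 0.99 ± 0.12 (SE, adjusted p = 3.81e-07, edgeR). Of 30 centromere and kinetochore genes 4 rose (median 0.24), among them Cenpl (0.96) and Knl1 (0.73), the kinetochore's scaffold for checkpoint proteins. In the chromosomal passenger complex and its shugoshin partners 6 of 7 rose, with a median of 0.69. Aurkb, the kinase of the complex, had 18.3 to 224 CPM (median 72.1) in mitotic-high and 17.2 to 99.6 (median 34.8) in mitotic-low cells and rose by 0.90 (adjusted p = 0.000227, edgeR, 10 of 12 libraries). Sgo2a and Sgo1, which guard centromeric cohesin, rose by 0.84 and 0.69, the scaffold Incenp by 0.76 and the subunit Cdca8, borealin, by 0.54. Birc5, survivin, had 248 to 485 CPM (median 335) in mitotic-high and 79.3 to 329 (median 281) in mitotic-low cells and rose by 0.41 (adjusted p = 0.0277, edgeR). Haspin, the kinase that marks histone H3 for the complex, was at 0.27 and did not pass.

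The spindle checkpoint and the anaphase-promoting complex, the ubiquitin ligase that it restrains, rose in few members. Bub3, which docks checkpoint proteins at kinetochores, had 105 to 584 CPM (median 255) in mitotic-high and 79.2 to 362 (median 160) in mitotic-low cells and rose by 0.72 (adjusted p = 4.53e-06, edgeR). Spdl1, a dynein adaptor at kinetochores (0.80), the kinase Ttk (0.68) and Mad2l1, the inhibitor of Cdc20 (0.42), rose too, so 4 of 12 checkpoint genes passed (median 0.31). Of 18 genes of the anaphase-promoting complex and its partners 3 rose, with a median of 0.07. These were Fzr1, the Cdh1 activator of late mitosis and G1 (0.83), the subunit Cdc27 (0.71) and Pttg1, securin (0.84), while the other members lay between -0.54 for Cdc26 and 0.35 for Anapc15.

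Genes of chromosome shape and of cytokinesis differed in how many passed. Of 10 cytokinesis genes 5 rose, with a median of 0.70. Prc1, which bundles the microtubules of the central spindle (chromosome 7, 80294450 to 80316259), had 49.6 to 640 CPM (median 170) in mitotic-high and 29.6 to 206 (median 74.5) in mitotic-low cells. It rose by 1.18 ± 0.15 (SE, adjusted p = 4.53e-06, edgeR) and was lower in mitotic-high cells in 1 library only. Kif23, the motor of centralspindlin (0.93), Ect2, the activator of RhoA at the cleavage furrow (0.75), the citron kinase gene Cit (0.73) and Anln, anillin (0.67), rose, whereas Kif20a (0.56, adjusted p = 0.0558, edgeR) and Racgap1 (0.55) did not pass. Of 20 condensin and cohesin genes 2 rose. Smc4, the ATPase of condensin, had 174 to 1035 CPM (median 308) in mitotic-high and 87.8 to 616 (median 202) in mitotic-low cells and rose by 0.69 (adjusted p = 1.17e-06, edgeR). Espl1, separase, the protease that cuts cohesin at anaphase, rose by 0.62. Neither the 9 genes of the nuclear lamina and envelope (median 0.03) nor the 7 MuvB and Foxm1 regulators (median 0.09) gave a call. Among all genes tested 0.655% passed, so lists this short lie near that share. Foxm1, the activator of many G2 and M genes, was at 0.21 and Mybl2, which encodes B-Myb, at -0.02.

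**Figure D3:**
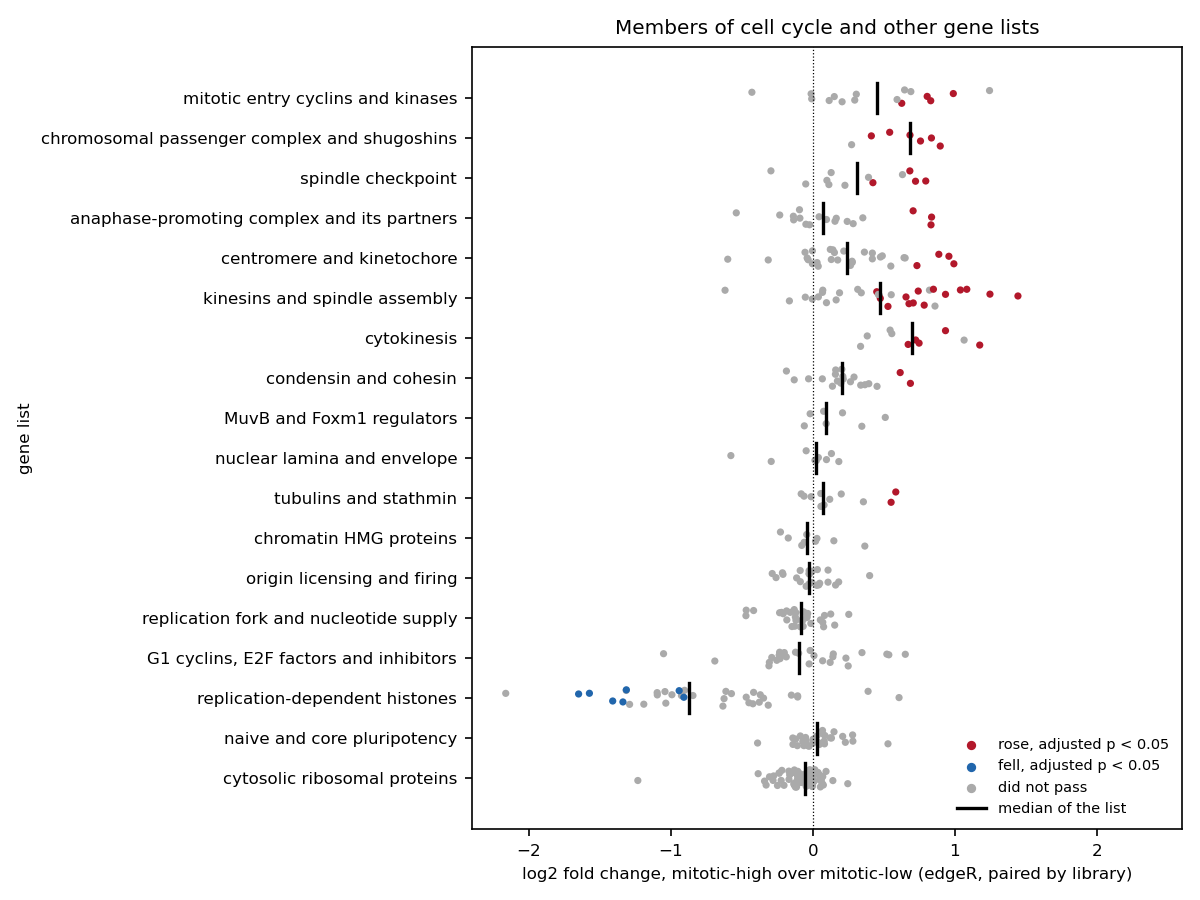
Log2 fold change of mitotic-high over mitotic-low cells (x axis) for each tested gene of 18 lists (y axis), with genes that rose in red, genes that fell in blue, genes that did not pass in grey and the list median as a black bar. The chromosomal passenger and cytokinesis lists lay furthest to the right, with medians of 0.69 and 0.70, and the replication-dependent histones furthest to the left, with a median of -0.87.

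Promoters are shown for the 4 mitotic genes with the smallest p, since CHR and CCAAT elements near the start site are a known feature of such genes. The sequences are those of RefSeq on GRCm38.p6, from 250 bases before to 50 bases after the annotated start, written 5′ to 3′ on the strand of the gene. Capitals mark TTTGAA or TTCGAA (CHR) and CCAAT (NF-Y), each on either strand, so that ATTGG is CCAAT on the other strand.
Cdk1, chr10:69352863-69353162, minus strand: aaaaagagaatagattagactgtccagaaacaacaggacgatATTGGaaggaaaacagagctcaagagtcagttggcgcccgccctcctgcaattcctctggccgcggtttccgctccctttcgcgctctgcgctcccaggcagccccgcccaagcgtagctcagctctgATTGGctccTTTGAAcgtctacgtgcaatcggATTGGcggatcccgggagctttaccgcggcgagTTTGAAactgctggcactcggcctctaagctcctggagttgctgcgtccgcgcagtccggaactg
Nusap1, chr2:119618048-119618347, plus strand: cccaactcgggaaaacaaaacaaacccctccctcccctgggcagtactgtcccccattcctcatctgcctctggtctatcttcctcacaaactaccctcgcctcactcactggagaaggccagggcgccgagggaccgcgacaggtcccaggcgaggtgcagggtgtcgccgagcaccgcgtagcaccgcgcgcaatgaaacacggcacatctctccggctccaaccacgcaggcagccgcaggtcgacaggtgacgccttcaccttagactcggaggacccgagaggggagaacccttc
Cenpa, chr5:30666636-30666935, plus strand: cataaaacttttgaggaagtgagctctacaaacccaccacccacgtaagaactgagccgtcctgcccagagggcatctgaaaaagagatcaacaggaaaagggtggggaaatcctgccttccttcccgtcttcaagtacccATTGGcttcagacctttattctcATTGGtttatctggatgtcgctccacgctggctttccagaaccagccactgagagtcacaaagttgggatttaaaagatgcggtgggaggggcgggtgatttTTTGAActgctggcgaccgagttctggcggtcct
Hmmr, chr11:40733388-40733687, minus strand: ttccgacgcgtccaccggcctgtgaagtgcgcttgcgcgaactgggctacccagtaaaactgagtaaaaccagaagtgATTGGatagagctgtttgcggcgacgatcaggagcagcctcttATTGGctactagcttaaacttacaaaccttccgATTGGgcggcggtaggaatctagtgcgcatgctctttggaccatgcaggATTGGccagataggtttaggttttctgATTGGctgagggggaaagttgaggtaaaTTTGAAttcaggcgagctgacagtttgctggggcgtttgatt

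The Cdk1 window held 2 CHR and 3 CCAAT matches, the Cenpa window 1 and 2 and the Hmmr window 1 and 5, with the CHR matches starting from 71 bases before to 16 bases after the annotated start. The Nusap1 window held neither, which says only that these letters are not in that window. A promoter entry was found for 63 of the 71 risen genes and for 8035 of the genes tested, with the first entry taken where a gene had several. A CHR match stood in 58.7% of the 63 promoters, in 14.2% of those of the genes tested and in 19.4% of all 27025 promoters in the table. A CCAAT match stood in 71.4% of the promoters of risen genes, against 39.9% of those of genes tested and 37.9% of all. Both together stood in 50.8%, against 6.16% of genes tested and 7.70% of all. The E2F letters TTTGGCGC or TTTCGCGC, searched on both strands and counted whether or not a match overlapped another motif, stood in 6.35%, against 1.71% of genes tested and 0.833% of all. These are matches of letters, not sites shown to be bound, and they were not tested.

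Several risen genes belong to no list and were named after their values were seen, apart from Arl6ip1, Arhgap11a and Trim59, which the naming rule selected. Arl6ip1, a membrane protein that shapes the endoplasmic reticulum (ENSMUSG00000030654, chromosome 7, 118118891 to 118129662), had the smallest p of all genes tested. It had 209 to 863 CPM (median 563) in mitotic-high cells and 127 to 405 (median 258) in mitotic-low cells. Mitotic-high cells were higher in all 12 libraries, and the rise was 1.04 ± 0.10 (SE, adjusted p = 2.97e-09, edgeR). Reep4, which clears endoplasmic reticulum from mitotic chromatin, rose by 1.22. Arhgap11a and Arhgap19, which are GTPase-activating proteins, rose by 1.34 and 1.14, and Aspm, a spindle pole protein, by 1.14. Cdca2, which brings a phosphatase to anaphase chromosomes, rose by 0.94 and Cdca3, which promotes the destruction of Wee1, by 0.57. Centrosome and centriole genes among the calls were Nde1 (0.73), Odf2 (0.45) and Hyls1 (1.41). In mitotic-low cells Hyls1 had 15.5 CPM in SCRB-seq A and at most 14.0 CPM elsewhere, so the count filter kept it through mitotic-high cells. Trim59, a member of the tripartite motif family, rose by 0.79 in 12 of 12 libraries, and Parpbp, which restrains homologous recombination, rose by 2.02 from low levels, with a median of 21.8 CPM in mitotic-high and 5.32 CPM in mitotic-low cells. In mitotic-low cells Parpbp had 23.6 CPM in Smart-seq / C1 B and at most 8.88 CPM elsewhere, so the count filter kept it through mitotic-high cells.

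Other rises lay outside the mitotic lists, many of them smaller, and only some were shared by all 12 libraries. Mtf2, an accessory subunit of Polycomb repressive complex 2, had 195 to 1314 CPM (median 561) in mitotic-high and 58.6 to 1081 (median 392) in mitotic-low cells. It was higher in all 12 libraries and rose by 0.49 ± 0.08 (SE, adjusted p = 0.00021, edgeR). Jarid2, another accessory subunit of that complex, rose by 0.39, and Kdm5b, a demethylase of histone H3 lysine 4, rose by 0.37 in 12 of 12 libraries. Sgk1, a serum-regulated kinase, rose by 0.42, Calm2, a calmodulin gene, by 0.39, L1td1, an RNA-binding protein of pluripotent cells, by 0.36, and Mat2a, which makes S-adenosylmethionine, by 0.32. The tubulin genes Tuba1c and Tubb4b rose by 0.59 and 0.55, while the most highly expressed tubulin, Tubb5, had a median of 1679 CPM in mitotic-high and 1578 CPM in mitotic-low cells and did not pass (0.06). Further calls were Jpt1 (0.84), Prr11 (1.27), Tenm4 (1.66), Cobl (0.49), Nol8 (0.52), Zfp710 (0.52) and Ttn (0.57). The largest fold change of all, 4.20 for Mgat4c, rests on few counts, with a median of 1.67 CPM in mitotic-high cells and 0 in mitotic-low cells, and the size of such a fold depends on the fit's prior. Its highest levels were 23.2 CPM in CEL-seq2 B and 18.6 CPM in MARS-seq B, both in mitotic-high cells. In mitotic-low cells it had at most 4.19 CPM, so it passed the count filter only through mitotic-high cells.

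Not all calls were held by every library. Of the 80 calls, 46 (43 rises and 3 falls) remained when any single library was left out, and 34 did not. Without Smart-seq2 A 53 genes were called, of which 51 were among the 80, and without Smart-seq2 B 56, of which 53 were. Of the 42 risen genes of the mitotic lists, 27 kept their call without any single library. The 15 that did not, all of which lost it without Smart-seq2 A, were Espl1, Cdc27, Spdl1, Ckap2, Pttg1, Ckap2l, Cenpl, Kif20b, Ttk, Birc5, Ckap5, Knstrn, Kif4, Cit and Mad2l1, with a highest adjusted p of 0.306 for Ttk over the 12 fits. Of these, Birc5 lost its call without any 1 of 7 libraries, Kif4 without any 1 of 8 and Cit and Mad2l1 without any 1 of 9. Outside these lists and the histones a call ended without at least 1 library for Nde1 without Smart-seq2 B (highest adjusted p 0.0745) and, with Smart-seq2 A among the libraries, for Kdm5b (0.0715), Jarid2 (0.122), Prr11 (0.0808), Hyls1 (0.135), Odf2 (0.107), Tenm4 (0.142), Nol8 (0.149), Ttn (0.113), L1td1 (0.177), Mat2a (0.212), Cobl (0.274) and Zfp710 (0.226), all by edgeR.

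Replication-dependent histone genes, whose mRNAs lack a poly(A) tail and are made in S phase, made up 7 of the 9 falls. How far each method captures mRNAs without such a tail was not tested, so the levels given may be of only a part of them. Of 62 such genes 60 had a count and 36 were tested, of which 7 fell and 0 rose. Their median log2 fold change was -0.87, and 34 of the 36 lay below 0, against 6082 of the 12218 genes tested. Hist1h2ae, an H2A gene (ENSMUSG00000069272, chromosome 13, 23570517 to 23571220), had 1.87 to 189 CPM (median 10.7) in mitotic-high cells and 0 to 753 (median 27.5) in mitotic-low cells. It was lower in mitotic-high cells in 11 of 12 libraries and higher in CEL-seq2 A, and it fell by 1.34 on the log2 scale (SE 0.18, adjusted p = 3.05e-06, edgeR). Hist1h4d, an H4 gene, had a median of 15.2 CPM in mitotic-high and 39.2 CPM in mitotic-low cells and fell by 0.91. The others that fell were Hist1h2aa (-1.65), Hist1h2af (-1.57), Hist1h2ab (-1.41), Hist1h2ak (-1.31) and Hist1h1e (-0.94). In mitotic-high cells Hist1h2aa had 56.15 CPM in MARS-seq A and at most 15.5 CPM elsewhere, so the count filter kept it through mitotic-low cells. Hist1h2ak was lower in mitotic-high cells in every library, but Hist1h2af in only 6 of 12. Hist1h1e was higher in mitotic-high cells in CEL-seq2 A, CEL-seq2 B, SCRB-seq A and Drop-seq A.

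The histone calls rested in part on MARS-seq. Without MARS-seq A 2 of the 7 histone genes kept their call and without MARS-seq B 3, and Hist1h2ae and Hist1h4d were the only ones that kept it without any single library. Hist1h2af lost its call only without MARS-seq A (adjusted p = 0.604, edgeR), and Hist1h2aa and Hist1h2ab only without MARS-seq A or B, with a highest adjusted p of 0.279 and 0.119. Hist1h1e lost its call without any 1 of 4 libraries (highest adjusted p 0.188) and Hist1h2ak without any 1 of 7 (0.194). Summed over the 62 genes, the histones took 61.4 to 4488 CPM (median 1182) in mitotic-high and 85.5 to 17638 CPM (median 1859) in mitotic-low cells. The sum was lower in mitotic-high cells in 11 of 12 libraries. It was higher in CEL-seq2 A, at 2338 CPM in mitotic-high and 1313 CPM in mitotic-low cells, and nearly level in Drop-seq A, at 841 and 886 CPM in mitotic-high and mitotic-low cells. In the full-length libraries the same genes took 61.4 to 191 CPM in mitotic-high and 85.5 to 291 CPM in mitotic-low cells, all lower in mitotic-high cells. The middle cells had a histone sum between those of the other sets in 8 of the 12 libraries.

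**Figure D4:**
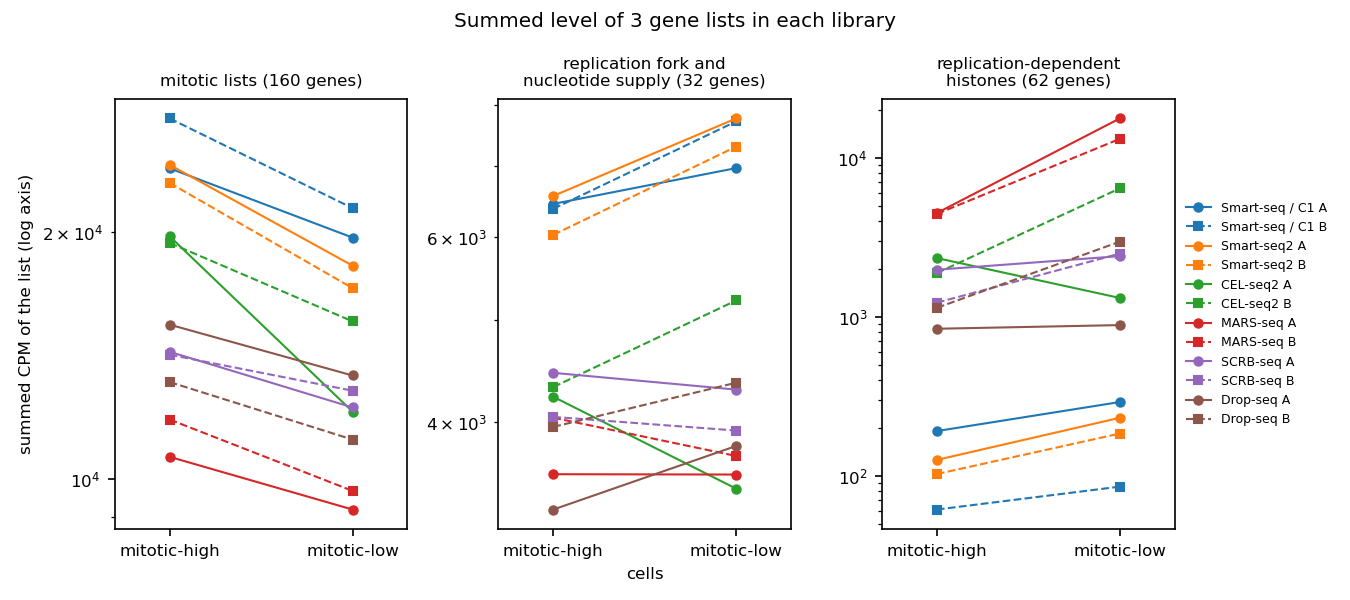
Summed CPM (log axis) of 3 lists in mitotic-high cells (left in each panel) and mitotic-low cells (right), with 1 line per library. The 160 mitotic genes were higher in mitotic-high cells in 12 of 12 libraries, the 62 histone genes lower in 11 of 12 and the 32 replication fork genes lower in 7 of 12.

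Across single cells the lists followed the score to different degrees. The summed CPM of the 160 mitotic genes had a Spearman correlation with the score of 0.31 to 0.87 within libraries (median 0.67, over 29 to 80 cells each), and the summed histones of -0.72 to 0.22 (median -0.37). The cells of a library share its depth and preparation, and the score and the sums share the total count of each cell, so these are descriptions. As sums, the 160 genes took 10653 to 27503 CPM (median 17416) in mitotic-high and 9191 to 21389 CPM (median 13102) in mitotic-low cells. The log2 difference of these sums ran from 0.15 to 0.71, and in all 12 libraries the middle cells lay between the sets.

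Genes that run DNA replication gave no call, but only 0.655% of all genes tested passed, so lists of this size lie near that share. Of 23 genes of origin licensing and firing 0 rose and 0 fell (median -0.02), of 32 genes of the replication fork and nucleotide supply none passed (median -0.08, with 25 below 0), and of 27 G1 cyclins, E2F factors and inhibitors none passed (median -0.10). Slbp, which binds the stem-loop of histone mRNA, came closest, with 36.4 to 300 CPM (median 139) in mitotic-high and 71.5 to 361 (median 161) in mitotic-low cells. It was lower in mitotic-high cells in 10 of 12 libraries, with a log2 fold change of -0.42 and an adjusted p of 0.0552 (edgeR). Pcna, the sliding clamp of the replication fork, had 128 to 459 CPM (median 243) in mitotic-high and 156 to 597 (median 281) in mitotic-low cells (-0.23, adjusted p = 0.321, edgeR). Ccne1, cyclin E1, which acts at entry into S phase, was at -0.19 and Cdkn1a, the inhibitor p21, at -0.10. In the 4 full-length libraries the sum of the fork genes was lower in mitotic-high cells in all, at 6026 to 6562 CPM against 6973 to 7774 CPM in mitotic-low cells, while in the 8 UMI libraries it was lower in 3.

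Per3, a period gene of the circadian clock (ENSMUSG00000028957, chromosome 4, 151003652 to 151044665), was the fall outside the histones that every library shared. It had 0 to 67.0 CPM (median 7.17) in mitotic-high and 6.43 to 154 CPM (median 20.6) in mitotic-low cells, and the middle cells lay between, at a median of 11.5 CPM without TMM scaling. The fall was 1.37 on the log2 scale (SE 0.29, adjusted p = 0.00616, edgeR), it was seen in 12 of 12 libraries, and it remained without any single library. In all, 6 genes (0.0491%) were lower in all 12 libraries. The last of the 9 falls, the predicted gene Gm20594 (-0.69), was lower in 7 libraries and higher in 5, and its call ended without any 1 of 7 libraries (highest adjusted p 0.474, edgeR).

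No gene of the pluripotency network passed. Of 31 naive and core genes 0 rose and 0 fell, with a median log2 fold change of 0.03. Only 0.655% of all genes tested passed, so 0 calls among 31 genes lie near that share and cannot set the network apart. Nanog, a core regulator, had 281 to 940 CPM (median 420) in mitotic-high and 261 to 850 (median 384) in mitotic-low cells (0.21, adjusted p = 0.429, edgeR). Pou5f1, which encodes Oct4, had 32.9 to 682 CPM (median 288) in mitotic-high and 39.1 to 544 (median 300) in mitotic-low cells (-0.07), and Klf4 was at -0.11. Zfp42, a naive marker, had the smallest p of the list (0.23, adjusted p = 0.195, edgeR, higher in 10 of 12 libraries). These genes were present in both sets, as the label of the cells asks, and none of the 11 tested genes of primed and formative pluripotency passed (median -0.01).

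No tested marker of another cell type passed, and some of these lists had counts in every library. Since 0.655% of all genes tested passed, an absence of calls in these lists and in those named below is near that share. Feeder fibroblast genes took 17.6 to 584 CPM in mitotic-high and 38.8 to 407 CPM in mitotic-low cells, summed over 10 genes, of which S100a4, Postn and Lum had no count, Col1a1, Col1a2, Col3a1 and Dcn at most 50, and only Vim and Thy1 were tested. Of the other markers, 4 of 10 for primitive endoderm, 6 of 10 for trophectoderm, 2 of 8 for mesendoderm and 2 of 8 for neural cells had enough counts to be tested, and none passed. The primitive endoderm list took 86.8 to 655 CPM in mitotic-high and 131 to 746 CPM in mitotic-low cells. Its most abundant gene, Sparc, which encodes a matrix glycoprotein, had 539 CPM in mitotic-high and 631 CPM in mitotic-low cells of Smart-seq / C1 A. Pou5f1 had 32.9 and 39.1 CPM in mitotic-high and mitotic-low cells of that library. In Smart-seq2 A Sparc had 242 and 236 CPM and Pou5f1 376 and 423 CPM in mitotic-high and mitotic-low cells. The primitive endoderm genes Gata4, Gata6, Sox17, Sox7 and Foxa2 had at most 50 counts each. The 2-cell-like list took 45.7 to 1317 CPM in mitotic-high and 80.5 to 1169 CPM in mitotic-low cells, and of its 8 tested genes none passed in the paired comparison. Of the stress and metabolic lists, no member of the immediate early (11 tested), heat shock (12), p53 target (19), ATF4 (17), glycolysis (19), cholesterol (23), Nodal (13), ribosomal protein (88), mitochondrial (22) or HMG (9) lists passed. Of the 17 ATF4 genes 16 lay below 0 (median -0.21), and their sum was higher in mitotic-high cells in 3 of 12 libraries. Of the 88 ribosomal protein genes 66 lay below 0 (median -0.05), and of the 22 mitochondrial genes 18 lay above 0 (median 0.08). Hmgb2, a chromatin protein often used as a marker of cycling cells, had 70.5 to 1309 CPM (median 498) in mitotic-high and 63.9 to 1191 CPM (median 364) in mitotic-low cells and did not pass (0.15).

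Whether the differences depended on the kind of library was tested as an interaction. All 71 risen genes had the same sign in the full-length and in the UMI libraries, with a median log2 fold change of 0.82 in the full-length and 0.65 in the UMI libraries, and for none of them did the interaction pass. Since the 71 genes were chosen by a test over these same libraries, their agreement in sign is partly built in. By library, the median difference of the 71 genes ran from 0.29 in SCRB-seq A and 0.33 in SCRB-seq B to 1.23 in CEL-seq2 A. The genes above 0 numbered from 50 in MARS-seq A to 71 in Smart-seq2 A. SCRB-seq was also the method with the narrowest gap in the score that chose the cells.

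The interaction of set with kind of library passed for 2 genes (0.0164%), and 519 (4.25%) had an unadjusted p below 0.05. Gm3550, a predicted gene, had a log2 fold change of 1.70 in the full-length and -0.42 in the UMI libraries, an interaction of 2.12 (adjusted p = 0.0178, edgeR). It took 5.39 to 29.8 CPM in mitotic-high and 1.70 to 16.1 CPM in mitotic-low cells of the 4 full-length libraries, and all 4 were higher in mitotic-high cells. Gm5662, a predicted gene that marks 2-cell-like cells, had 3.93 and -1.21, an interaction of 5.14 (adjusted p = 0.0178, edgeR). Its full-length value rests on Smart-seq / C1 B, with 125 CPM in mitotic-high and 8.11 CPM in mitotic-low cells, and in Smart-seq2 A and B it had no count. Neither call remained without Smart-seq / C1 B, MARS-seq A, SCRB-seq A or Drop-seq B, after each of which 0 genes passed. Over the 6 methods 1 gene passed (0.00818%), Gm2016 (adjusted p = 0.0118, edgeR), with 185 CPM in mitotic-high and 9.25 CPM in mitotic-low cells of Smart-seq / C1 B and 25.1 and 326 CPM in mitotic-high and mitotic-low cells of Drop-seq B. An unadjusted p below 0.05 was reached by 607 genes (4.97%) in that test.

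Amounts of RNA and numbers of genes per cell were compared by exact two-sided sign permutation over libraries, with p-values adjusted over 4 measures. Cells were not ranked on them, but neither is independent of the ranking. The number of genes includes the 10 ranking genes, and the total count of a cell enters both the score and the RNA measure. With each cell thinned to 10000 counts, mitotic-high cells held 3585 ± 258 genes and mitotic-low cells 3485 ± 317 (mean of library medians ± SD, n = 12). The difference was 101 ± 93.4 genes, with more in mitotic-high cells in 9 of 12 libraries (exact permutation p = 0.00537, adjusted 0.0215). It was 82.0 with cells ranked after thinning, where the adjusted exact permutation p was 0.0918.

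**Figure D5:**
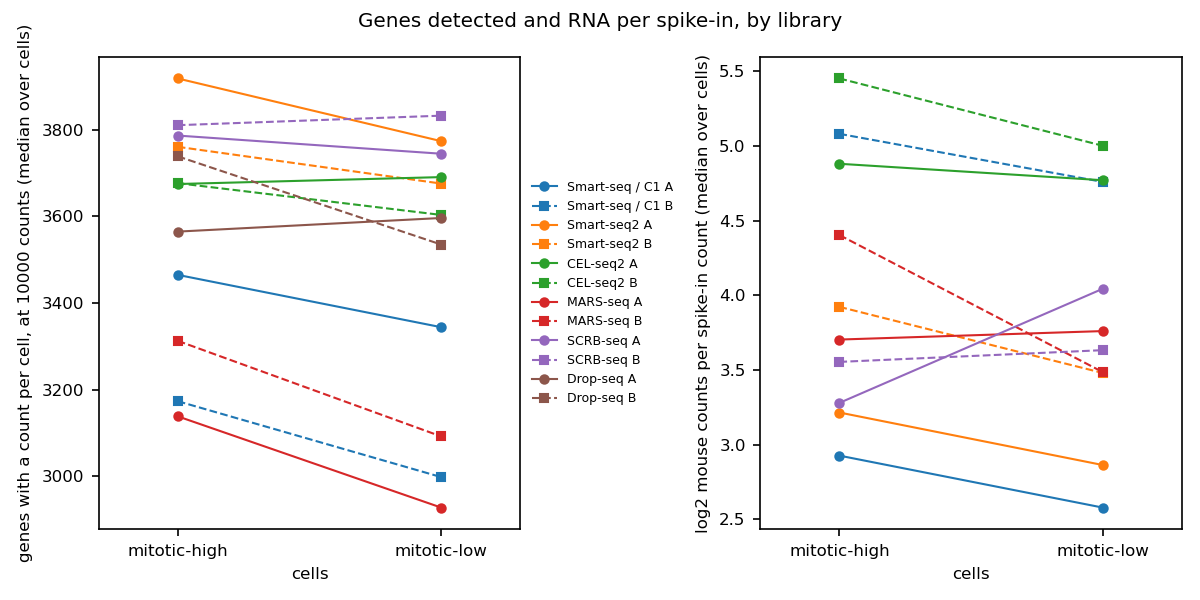
Genes with a count per cell at 10000 counts (left panel) and log2 mouse counts per spike-in count (right panel), as medians over mitotic-high (left in each panel) and mitotic-low cells (right), with 1 line per library. More genes were seen in mitotic-high cells in 9 of 12 libraries, and spike-in ratios were higher there in 7 of 10, with SCRB-seq A the largest exception.

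Counts of mouse genes per count of ERCC spike-ins, synthetic RNAs added to the samples, were used as a measure of RNA per cell. Drop-seq had under 0.5% spike-in counts and was not used, which left 10 libraries and a smallest possible p of 0.00195. The log2 ratio was 4.04 ± 0.87 in mitotic-high and 3.84 ± 0.81 in mitotic-low cells (mean ± SD, n = 10). The difference of 0.20 ± 0.44, a fold of 1.15, was positive in 7 of 10 libraries and did not pass (exact permutation p = 0.186, adjusted 0.247). It ran from -0.76 in SCRB-seq A to 0.92 in MARS-seq B, and without SCRB-seq A it was 0.31 (adjusted exact permutation p = 0.0391). The mitochondrial share of counts was 4.76 ± 2.78% in mitotic-high and 4.44 ± 2.72% in mitotic-low cells (exact permutation p = 0.135, adjusted 0.247, n = 12). Ribosomal protein genes took 7.02 ± 3.78% in mitotic-high and 7.21 ± 3.97% in mitotic-low cells (exact permutation p = 0.396, adjusted 0.396, n = 12).

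Reads of genes with close copies may have been assigned to either copy, and such levels are uncertain. By 31-mers of the longest transcript, an overlap of 10% or more with another gene was found for Calm2, Cks2, Gm20594, Gm3550, Gm5662, Hmgb2, Jpt1, Mat2a, Nanog, Pcna, Trim59, Tuba1c, Tubb4b, Zfp42 and all 7 fallen histone genes among the genes searched. Not every gene named was searched, and Gm2016 and the ranking genes were not. For Hist1h2af the share was 85.9% and for Gm5662 89.1%.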

How the data were processed

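The table the authors deposited holds whole-number counts per gene and cell for 38924 mouse genes and 92 ERCC spike-ins. Counts are UMIs for the 4 methods that capture 3' ends and are taken as reads for both Smart-seq methods. Per the submitters' processing notes, bcl2fastq and STAR 2.4.0 with the mm10 build were used, and what else was done to the counts is not given in the sources used here. All columns were mapped to a library by their name, and no cell was left out.

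Counts were summed over each set of cells in each library. They were tested with edgeR 4.0.16 (R 4.3.3) by filterByExpr with method and set as the group, TMM scaling and a robust quasi-likelihood fit with a term for library and a term for set. Benjamini-Hochberg adjustment ran over the 12218 genes other than the ranking genes, at a threshold of 0.05. The ranking genes stayed in the fit. The SE is the log2 fold change over the square root of the F value. The pairing comes from the design, since both sums are of the same library, and deviations from the method means of paired sums correlated at 0.115 to 0.59. The paired edgeR fit, and no other test, was also run on simulated counts, from which nothing is drawn here. The summed counts given in the results set the precision. Genes were named by rule. In each direction these were the 12 largest changes with the same sign in all 12 libraries among genes of average log2 CPM 5 or more, which gave 12 rises and 0 falls. From each list came the 2 genes of smallest p and the 1 of highest expression. Ccnb2, Cdk1, Ccna2, Aurkb, Birc5, Cenpa, Hmgb2, Pcna, Ccne1, Cdkn1a, Pou5f1, Nanog and Klf4 were always named. Not every gene the rule selects is described. The ranking genes, the lists and the rule were chosen with earlier results of these data known. Gene symbols and positions are those of GENCODE M21 (GRCm38), which matched 37607 identifiers. No doublet caller was run. Alternatives were DESeq2 1.42.0, limma 3.58.1 on mean log2 values, other scaling, filters, rankings and divisions of the cells, and leaving out libraries.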

Additional observations from a re-analysis of the deposited data

Results flagged for a closer look

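For 11 of 160 groups examined, a gene's log2 difference between mitotic-high and mitotic-low cells in 1 library lay far from that in the other libraries of its kind. Chance alone would flag about 1 in 20 groups only if the libraries were equally noisy, and their depth differs widely. In CEL-seq2 A the difference was 2.70 for Hist1h2ae, against -2.14 to -0.41 in the other UMI libraries, 2.08 for Ccna2 (others 0.23 to 1.10), 2.21 for Ttk (others -0.25 to 0.75) and 1.87 for Birc5 (others -0.07 to 0.63). In MARS-seq B it was 4.61 for Cdca2 (others -0.33 to 1.56). In Drop-seq A it was -0.66 for Cit (others 0.80 to 1.94), and in Drop-seq B 2.46 for Cobl (others -0.19 to 0.92) and 2.00 for Gm20594 (others -1.30 to 0.22). Among the full-length libraries, Smart-seq / C1 A was lowest for Cdc27 at 0.20 (others 0.91 to 1.04) and for Knstrn at -0.50 (others 1.05 to 1.36), and Smart-seq / C1 B was lowest for Prr11 at 0.61 (others 1.73 to 1.93).

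For 3 genes the difference itself differed between kinds of library or methods by edgeR's quasi-likelihood test. The full-length minus UMI difference was 2.12 for Gm3550 and 5.14 for Gm5662, and for Gm2016 the test over methods gave an adjusted p of 0.0118.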

How the results depend on the processing

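Of the main settings, the paired edgeR fit called 80 genes. With no replicate block, that is without pairing the sums by library, 30 were called, of which 29 were among the 80. DESeq2 called 128, cells thinned to 10000 counts before ranking and summing gave 31, the read-count libraries alone gave 9, and leaving out 1 library gave 53 to 90. The UMI libraries alone gave 66 (37 rises and 29 falls). All other alternatives lay within 1.5 times, from 64 with cells ranked after thinning to 118 with limma on mean log2 values. Of the 80 genes 79 or 80 kept their direction under each alternative, and 17 their call under all but the read-count and UMI subsets. The rises were 116 of 118 with limma, where the median of all genes was 0.20. Without both Drop-seq libraries, an alternative chosen after seeing the data, 81 genes were called, 68 of them among the 80, and with near-identical Drop-seq barcodes joined 82. Without the cells of high total count 80 were called. The interaction with the kind of library called 6 genes with no filter, 0 with cells ranked after thinning, 0 with the cells divided at the median score and 0 to 5 without 1 library. RNA per spike-in lay between 0.125 and 0.312 (log2) without 1 library, and passed without SCRB-seq A alone. The difference in genes per cell was 82.0 and did not pass with cells ranked after thinning, and that of the mitochondrial share turned to -0.0934 points there. Gm20594 turned to 0.0623 with limma and to 1.11 in the read-count libraries, and Gm5662 turned to -1.31 in the UMI libraries. The causes were not tested. Depth limits genes of low level, above all in MARS-seq and Drop-seq, where a set held 154801 counts at the least.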
